A study of Mus musculus with 10 samples.

Results

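The adhesion G protein-coupled receptors were taken as every gene whose symbol began with Adgr followed by a subfamily letter and a number. This rule, which used no measured value, matched 27 of the 25233 genes with a symbol in the deposited table, with 3 members in subfamily A, 3 in B, 1 in D, 3 in E, 5 in F, 7 in G, 4 in L and 1 in V. The 3 genes of subfamily C, Celsr1 to Celsr3, carry other symbols and are given apart. RNA sequencing was done on 10 libraries of cells purified from the livers of male C57BL/6J mice, 5 of hypertrophied hepatic stellate cells (hypHSCs) and 5 of quiescent hepatic stellate cells (qHSCs), and the comparison asked which genes the hypertrophied state changes. The hypHSC libraries 1 and 2 came from mice aged 19 weeks that had been fed for 13 weeks with CDAHFD (a diet low in choline and methionine and rich in fat, used to bring on steatohepatitis), and hypHSC libraries 3, 4 and 5 from mice aged 18 weeks after 12 weeks of CDAHFD. The qHSC libraries 1, 2 and 5 came from mice aged 36 weeks and qHSC libraries 3 and 4 from mice aged 34 weeks, all on standard diet. Diet, age, liver digestion and the sorting gate (green autofluorescence for hypHSCs, blue for qHSCs) differed together between the groups and cannot be told apart. A replicate was a cell preparation, and the mouse behind each one was not given in the labels. The paper reports that the hypHSC preparations were picked for the highest RNA integrity, among samples that outnumbered the mice. Libraries may therefore share a mouse, and the p-values measure only the spread between the preparations picked.

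Adhesion receptors are G protein-coupled receptors with a long extracellular part that holds adhesion modules and, in most members, a GAIN domain that cuts the protein into a fragment bound to ligand and a fragment in the membrane. Removal or bending of the outer fragment can expose a tethered peptide that switches the receptor on, so that the family is thought to sense contact with matrix and neighbouring cells. In the liver the best known members are Adgre1, the F4/80 antigen by which macrophages are recognised, and Adgre5 (CD97) of leukocytes.

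The libraries held 30534719 to 43283589 reads on genes with a symbol in hypHSCs and 35640104 to 47317028 in qHSCs. A floor of 3 reads corresponded to 2.25 to 4.54 normalized counts (reads divided by the size factor of the library). Library hypHSC 5 had the fewest genes with a read (14028) and the fewest adhesion receptor genes above 3 reads (9, against 15 to 18 in the other libraries). The labelled cell type was checked against markers. The 8 markers of quiescent stellate cells summed to 298187 to 441439 normalized counts in qHSCs and to 4732 to 9163 in hypHSCs, and 8 of 8 were lower in hypHSCs. The 10 core macrophage markers (Cd68, Csf1r, Lyz2 and C1qa among them, Adgre1 not) summed to 1034110 to 1538900 in hypHSCs and to 6237 to 112036 in qHSCs, and 10 of 10 were higher in hypHSCs. The hypHSC libraries thus carried stellate markers at a low level beside macrophage markers at a high level, and in bulk RNA fewer cells of a type and less RNA per cell cannot be told apart. None of these markers was at 0 in a whole group. Among other lists, the cholangiocyte markers (3 of 3 tested) and the portal fibroblast and mesothelial markers (3 of 3 tested) were higher in hypHSCs. Of the B cell markers 1 of 2 tested was higher, and 0 of 5 hepatocyte markers were called. The cholangiocyte list (Krt19, Krt7, Epcam and Spp1) summed to 161197 to 336179 in hypHSCs and to 9.41 to 381.84 in qHSCs. Krt19, whose values are given further below, made up only a small part of this sum in hypHSCs. How much of this sum came from cholangiocytes was not tested.

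Of the 27 adhesion receptor genes, 14 reached 10 normalized counts in 5 or more libraries and were tested. Adgre1 and Adgrg1 were called higher in hypHSCs, and Adgra2, Adgra3, Adgrd1, Adgre4, Adgrl1 and Adgrl2 were among the genes called lower, where a call needed a log2 fold change of at least 1 in size and an adjusted p of at most 0.05 by limma. Thus 2 of 14 were higher, against 17.8% of all 14630 genes tested, and 7 of 14 were lower, against 21.7% of all genes. These 2 and 7 calls stood under each of the 4 other scalings tried, although scaling by equal totals changed the calls over all genes from 3177 lower of 5779 called to 4225 of 6247, and scaling by Hprt, Pgk1 and Actb to 6990 of 8462. The median log2 fold change of the tested receptors was -0.997, and that of all genes -0.20. The median size of the change without its sign was 2.53 on the log2 scale for the receptors and 1.02 for all genes. Every hypHSC library lay above every qHSC library for 1 tested receptor gene, Adgrg1, and below for 6, where these shares were 17.6% and 22% over all genes. The 5 tested genes without a call were Adgre5, Adgrf5, Adgrg6, Adgrl3 and Adgrv1. Of the 13 genes that were not tested, 3 (Adgrb1, Adgrb3 and Adgrg4) had no read in any library.

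**Figure D1:**
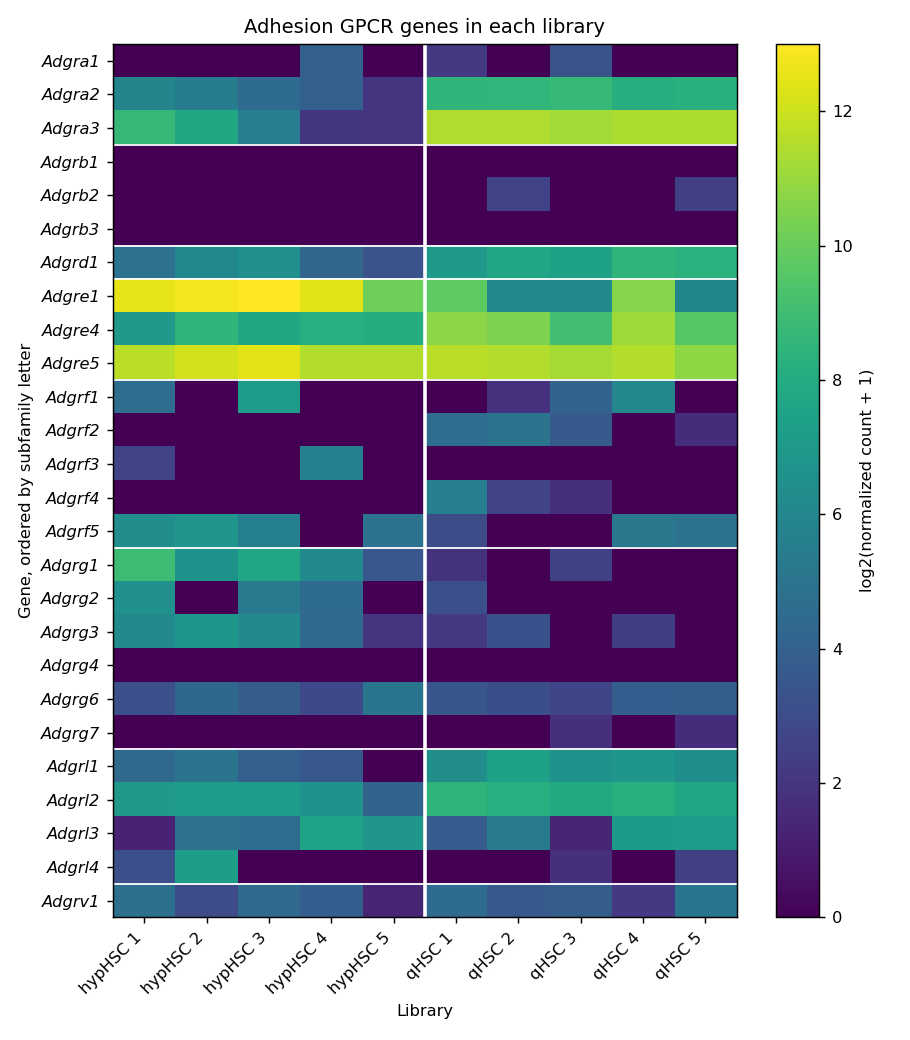
Heat map of the adhesion receptor genes described here (rows, ordered by subfamily letter) in the 10 libraries (columns, hypHSCs left of the white line and qHSCs right of it), coloured by log2(normalized count + 1). Adgre1, Adgre5 and, in qHSCs, Adgra3 and Adgre4 hold the bright rows, and Adgrb1, Adgrb3 and Adgrg4 are dark in all 10 libraries.

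**Figure D2:**
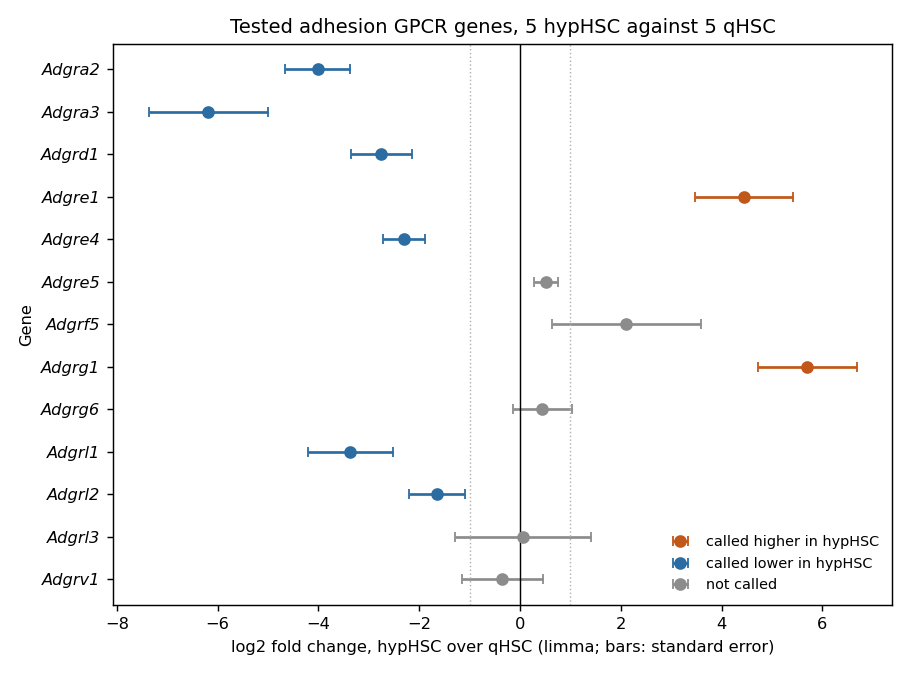
Log2 fold change of hypHSCs over qHSCs for the tested genes described here, with the limma standard error as bars, 5 libraries per group and dotted lines at -1 and 1. Adgrg1 at 5.70 and Adgre1 at 4.45 lie far to the right, and Adgra3 at -6.18 lies farthest to the left.

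The start regions of these genes differed in base composition. RefSeq promoter sequences (250 bases before to 50 bases after a transcript start, GRCm38.p6 coordinates) were held for 20 of the 27 genes, as 24 promoters, and for 6 of the 9 called genes. The GC box GGGCGG, the purine-rich motif GAGGAA, the CAAT box CCAAT and the TATA box TATAAA were searched on both strands. They occurred in 13, 10, 6 and 2 of the 24 promoters, and in 35.7%, 28.3%, 37.4% and 13.6% of all 32851 promoters of the same length. The sequences below are those of the receptor with the greatest fall (Adgra3), of a latrophilin that also fell (Adgrl1), of a myeloid receptor that fell (Adgre4) and of a receptor that rose (Adgrg1, upstream start). Capitals mark a GC box or a GAGGAA motif (on the other strand read as CCGCCC for the first and TTCCTC for the second), and no marked matches overlapped. Adgra3 lies on the minus strand at chr5:50058947-50059246, and the others on the plus strand, Adgrl1 at chr8:83899848-83900147, Adgre4 at chr17:55749734-55750033 and Adgrg1 at chr8:94976859-94977158.
Adgra3: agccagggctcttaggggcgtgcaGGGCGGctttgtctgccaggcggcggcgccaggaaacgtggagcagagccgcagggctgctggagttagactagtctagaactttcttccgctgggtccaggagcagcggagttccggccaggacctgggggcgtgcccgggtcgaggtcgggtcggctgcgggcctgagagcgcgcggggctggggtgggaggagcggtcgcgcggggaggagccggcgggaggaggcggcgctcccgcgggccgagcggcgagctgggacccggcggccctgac
Adgrl1: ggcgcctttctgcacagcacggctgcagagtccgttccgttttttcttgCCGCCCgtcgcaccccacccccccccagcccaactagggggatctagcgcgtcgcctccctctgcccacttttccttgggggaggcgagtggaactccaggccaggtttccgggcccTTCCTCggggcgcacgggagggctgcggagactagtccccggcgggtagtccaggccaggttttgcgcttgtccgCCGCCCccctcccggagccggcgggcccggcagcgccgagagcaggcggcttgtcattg
Adgre4: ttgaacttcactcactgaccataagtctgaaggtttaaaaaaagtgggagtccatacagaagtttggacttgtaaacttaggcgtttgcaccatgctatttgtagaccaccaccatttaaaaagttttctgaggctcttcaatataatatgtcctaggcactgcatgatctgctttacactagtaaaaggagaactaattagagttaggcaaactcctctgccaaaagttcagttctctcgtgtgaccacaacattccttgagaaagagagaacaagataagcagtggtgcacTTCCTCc
Adgrg1: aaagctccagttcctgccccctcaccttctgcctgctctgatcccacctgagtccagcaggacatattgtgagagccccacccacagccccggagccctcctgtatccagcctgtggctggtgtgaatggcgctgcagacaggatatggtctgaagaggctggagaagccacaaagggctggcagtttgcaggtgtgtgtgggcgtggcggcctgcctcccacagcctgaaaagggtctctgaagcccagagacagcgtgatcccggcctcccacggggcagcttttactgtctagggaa
The Adgra3 promoter held 34 CpG dinucleotides and the Adgrl1 promoter 28, against a median of 7 over all promoters. The Adgre4 promoter held 2 and the Adgrg1 promoter 7. Among the promoters held, those of receptors lower in hypHSCs thus had many CpG (Adgra3, Adgrl1) or few (Adgre4, and Adgrl2 with 4). The promoters were joined by symbol and not matched across genome builds to the counted spans. Whether a held start, that of Adgrl2 included, is the main start of its gene was not examined. The only TATAAA among the promoters of the called genes was in that of Adgrl2, and no CCAAT was found in them. A motif match is a description of the letters and not a binding site.

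Subfamily E holds the receptors of myeloid cells and was the most abundant of the family in both groups, but its 3 genes moved in different ways. Adgre1, which encodes F4/80 (chr17:57665686-57790529, mm39, as for all gene positions here), had 5914, 7144, 8100, 5265 and 1113 normalized counts in hypHSC libraries 1 to 5. In qHSC libraries 1 to 5 it had 881.55, 68.2, 67.7, 1580 and 60.7. Most hypHSC libraries were well above all qHSC libraries, but the groups overlapped, since hypHSC 5 lay below qHSC 4. The means were 5507 ± 2689 and 532 ± 684 (SD, n = 5 each), and the log2 fold change was 4.45 (SE 0.98, limma adjusted p = 0.00319, exact two-sided permutation p = 0.0159). The qHSC libraries 1 and 4, highest in Adgre1, were also those with the highest sums of the core macrophage markers (49301 and 112036, against 6237 to 10413 in the other 3). Without qHSC 4 the log2 fold change was 5.17, and without both these libraries it was 6.11 (limma adjusted p = 5.57e-05). Both libraries were picked with their values seen and held the highest Adgre1 of the qHSCs. Leaving them out therefore had to raise the fold change and is no test of the rise.

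The ratio of Adgre1 to the macrophage markers depended on the marker. Set against the sum of the 10 core markers, in which Lyz2 is the most abundant, Adgre1 amounted to 4.12, 4.64, 6.19, 3.97 and 1.08 counts per 1000 core macrophage marker counts in hypHSC libraries 1 to 5. In qHSC libraries 1 to 5 it amounted to 17.9, 10.9, 6.503, 14.1 and 6.497. All 5 qHSC ratios were above all 5 hypHSC ratios, although the highest hypHSC ratio (6.19, hypHSC 3) lay close to the lowest of qHSCs. Against single markers, the ratio was lower in hypHSCs without overlap for Lyz2 and Cd68 only, and the groups overlapped for the other 8. The mean log2 ratio was higher in hypHSCs for 6 of the 10, by 0.68 for Csf1r, 0.59 for C1qa and 2.73 for Mertk, against -2.75 for Lyz2 and -2.34 for Cd68. The 5 markers of resident Kupffer cells, the long-lived macrophages of the liver sinusoid, summed to 14397 to 26274 in hypHSCs and to 1058 to 37359 in qHSCs. Only Vsig4 and Cd5l of these 5 were called higher, and the sums of qHSC 1 (16617) and qHSC 4 (37359) lay within or above the hypHSC range.

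Adgre4, a receptor of myeloid cells related to F4/80 (chr17:56056983-56160662), changed in the opposite direction. It had 125, 363, 220.37, 280.1 and 265 normalized counts in hypHSC libraries 1 to 5. In qHSC libraries 1 to 5 it had 1691, 1415, 533, 2236 and 760 (759.78). Every qHSC library lay above every hypHSC library, and qHSCs spread more widely. The means were 251 ± 87.2 and 1327 ± 693 (SD, n = 5 each), and Adgre4 fell by 2.30 on the log2 scale (SE 0.42, limma adjusted p = 0.000905, exact permutation p = 0.00794, the smallest that 5 against 5 libraries allow). Within qHSCs it was highest in qHSC 4 and qHSC 1, the libraries with the highest macrophage and Kupffer sums, but qHSC 2 was high as well (1415) with a Kupffer sum of 1058. Without qHSC 1 and qHSC 4 the log2 fold change was -1.81 (limma adjusted p = 0.00981). How much of the Adgre4 RNA came from stellate cells and how much from macrophages was not tested. Its promoter, printed above, held the fewest CpG among those of the called genes.

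Adgre5, which encodes CD97, a leukocyte receptor for CD55 (chr8:84449880-84467956), was abundant in every library and passed no call. Its values were 3169, 4471, 5632, 2896 and 2936 normalized counts in hypHSC libraries 1 to 5. They were 3235, 2931, 2398, 2891 and 1744 in qHSC libraries 1 to 5. The groups overlapped, with hypHSC 2 and 3 above all qHSC libraries and qHSC 3, 4 and 5 below all hypHSC libraries. The log2 fold change was 0.51 (SE 0.24, limma adjusted p = 0.0972, exact permutation p = 0.0952). It was -0.43 when the libraries were scaled by Hprt, Pgk1 and Actb, which moved the median of all genes from -0.20 to -1.12. The exons of Adgre5 share 26.9% of their bases with Ddx39a and 2 shorter genes, the libraries did not keep the strand, and Ddx39a itself was higher in hypHSCs (3098 ± 660 against 1210 ± 171 normalized counts, SD, n = 5 each, log2 fold change 1.33, limma adjusted p = 0.000209), so that reads of Adgre5 are uncertain there.

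**Figure D3:**
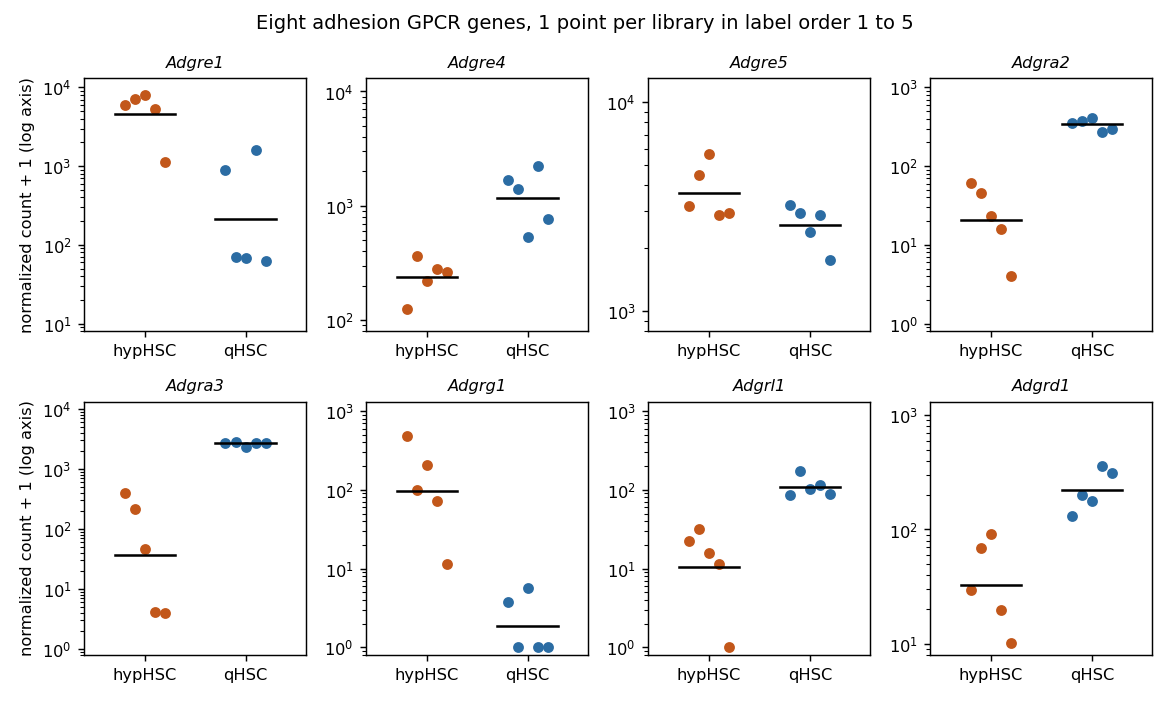
Normalized count + 1 on log axes for 8 adhesion receptor genes, with 1 point per library (orange hypHSCs, blue qHSCs, libraries 1 to 5 from left to right) and the mean of the log values as a line. Adgra3 is tight in qHSCs (2345 to 2821) and spreads from 3.02 to 403 in hypHSCs, and the groups overlap in the panels of Adgre1 and Adgre5.

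Subfamily A had the largest fall. Adgra3 (GPR125, chr5:50117293-50216338), a receptor linked to planar cell polarity and Wnt signalling, had 2761, 2821, 2345, 2748 and 2702 normalized counts in qHSC libraries 1 to 5. In hypHSC libraries 1 to 5 it had 403, 211, 45.7, 3.15 and 3.02. The groups did not overlap, the qHSC libraries lay close together, and the hypHSC libraries spread widely, down to the floor of 3 reads in hypHSC 4 and 5. The means were 2676 ± 189 in qHSCs and 133 ± 173 in hypHSCs (SD, n = 5 each), a ratio of 20.1. The log2 fold change was -6.18 (SE 1.19, limma adjusted p = 0.00132, exact permutation p = 0.00794). Leaving out 1 hypHSC library gave -7.05 (without hypHSC 1), -6.82 (hypHSC 2), -5.40 (hypHSC 4) and -5.39 (hypHSC 5). Over all alternatives it ran from -8.18 with the hypHSC libraries at 12 weeks of diet alone to -4.33 with DESeq2. By library the order of Adgra3 in hypHSCs was that of the 4 myofibroblast markers (Acta2, Tagln, Cnn1, Col1a1), which summed to 11702, 9554, 8209, 3141 and 2677 in hypHSC libraries 1 to 5. The sums of the portal fibroblast and mesothelial markers had the same order (1171, 734, 617, 471 and 237), whereas Acta2 alone had another. The order was not that of the quiescent stellate markers, which summed to 9163, 4732, 5479, 6834 and 6014. The marker lists set beside Adgra3 were picked after the sums of all lists were seen. Adgra3 had 3 reads in hypHSC 4 and 2 in hypHSC 5, so that the order of these libraries is not firm. In qHSCs the myofibroblast markers summed to 4517 to 11134, and of the 3 tested 0 were called higher and 1 lower. The part of these cells in the spread of Adgra3 was not tested.

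Adgra2 (GPR124, chr8:27575869-27613464) is the receptor that, with the anchored protein RECK, lets cells respond to WNT7 ligands. It had 357, 371, 411, 274 and 299 normalized counts in qHSC libraries 1 to 5. In hypHSC libraries 1 to 5 it had 59.3, 44.5, 22.4, 14.7 and 3.02. The order of libraries was that of Adgra3, which was at the floor of 3 reads in hypHSC 4 and 5. The groups did not overlap, and the log2 fold change was -4.02 (SE 0.65, limma adjusted p = 0.000409, exact permutation p = 0.00794), or -3.42 without hypHSC 5. Reck, its partner, fell with it, from 585 ± 114 to 27.4 ± 22.0 normalized counts (SD, n = 5 each, log2 fold change -5.21, limma adjusted p = 0.000832), and its groups did not overlap. Of the ligands, Wnt7a and Wnt7b were at 0 in all qHSC libraries and reached at most 14.97 and 8.09 normalized counts in hypHSCs. Adgra1 (GPR123), a receptor known mainly from the nervous system, was not tested and had reads in 1 hypHSC library (14.7) and 2 qHSC libraries (3.62 and 9.45).

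Subfamily G held the greatest fitted rise of the family. Adgrg1 (GPR56, chr8:95703737-95740845), a receptor for collagen III and transglutaminase known from cortical development and cytotoxic lymphocytes, had 477, 97.3, 205, 71.3 and 10.6 normalized counts in hypHSC libraries 1 to 5. In qHSC libraries 1 to 5 it had 2.72, 0, 4.72, 0 and 0, from 9 reads in all. The groups did not overlap, and hypHSCs ran over a wide range, with hypHSC 5 the lowest. The log2 fold change was 5.70 (SE 0.99, limma adjusted p = 0.00067, exact permutation p = 0.00794), and it depended on the constant added before the logarithm, from 6.35 with 0.5 to 4.07 with 5. With a constant of 5, and without qHSC 1 and qHSC 4, the rise of Adgre1 was the larger (4.39 against 4.07, and 6.11 against 5.75). The 4 T and NK cell markers found by symbol, of which none of the 2 tested was called, did not follow it by library, with sums of 479.72, 15.5, 20.8, 241 and 219 in hypHSC libraries 1 to 5. The sums of the cholangiocyte markers did not follow Adgrg1 either, at 280087, 177151, 161197, 236550 and 336179 in hypHSC libraries 1 to 5. They were highest in hypHSC 5, where Adgrg1 was lowest. Of this list only Krt19, chosen after its values were seen, had the library order of Adgrg1. It had 710.14, 137, 202, 67.1 and 33.3 normalized counts in hypHSC libraries 1 to 5 and at most 8.15 in qHSCs. Krt7, Epcam and Spp1 of the same list had other orders. The part of cholangiocytes or lymphocytes in the Adgrg1 values was not tested. Without hypHSC 5 the log2 fold change of Adgrg1 was 6.46.

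Adgrg1 has Adgrg3 beside it on chromosome 8. Adgrg3 (GPR97, chr8:95744320-95771875), known from granulocytes, was not tested, with 72.8, 114.9, 72.3, 20.98 and 3.02 in hypHSC libraries 1 to 5. In qHSC libraries 1 to 5 it had 3.62, 8.52, 0, 4.28 and 0, and only hypHSC 5 lay within the qHSC range. The 5 neutrophil markers summed to 1462 to 5911 in hypHSCs and to at most 109.52 in qHSCs, 3 of 3 tested were called higher, and Retnlg was at 0 in all qHSC libraries. Their part in the Adgrg3 values was not tested.

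Of the other members of subfamily G, Adgrg6 (GPR126), which drives myelination by Schwann cells, was low in all libraries, at 6.29 to 31.8 normalized counts in hypHSCs and 5.51 to 14.2 in qHSCs. It was not called (log2 fold change 0.44, SE 0.58, limma adjusted p = 0.556), and the groups overlapped. Adgrg2 (GPR64), known from the epididymis, was not tested, with values of 94.3, 39.9 and 22.03 in hypHSC libraries 1, 3 and 4, 0 in hypHSC 2 and 5, and reads in a single qHSC library (8.15). Adgrg7 (GPR128) was at 0 in hypHSCs and reached 2.36 in qHSCs. Adgrg4 had no read.

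Subfamily L comprises the latrophilins Adgrl1 to Adgrl3, which bind teneurins, FLRT proteins and, for Adgrl1, neurexins, and the endothelial receptor Adgrl4 (ELTD1). Adgrl1 (chr8:84626727-84668582) had 85.1, 173, 101, 114 and 88.4 normalized counts in qHSC libraries 1 to 5. In hypHSC libraries 1 to 5 it had 21.6, 31.1, 14.97, 10.5 and 0. The groups did not overlap, and the log2 fold change was -3.37 (SE 0.84, limma adjusted p = 0.00654, exact permutation p = 0.00794). Without hypHSC 5, the library at 0, it was -2.52. Other genes cover 15.6% of the exon bases of Adgrl1 (Gm10644, Gm54906 and Gm54907) in libraries that did not keep the strand.

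Adgrl2 (chr3:148521219-148695120) had 351, 279, 236, 308 and 198 normalized counts in qHSC libraries 1 to 5. In hypHSC libraries 1 to 5 it had 129, 146, 138, 102 and 16.6, so that the groups did not overlap and hypHSC 5 stood far below the rest. It fell by 1.64 on the log2 scale (SE 0.55, limma adjusted p = 0.0291, exact permutation p = 0.00794). The call was lost without qHSC 1, qHSC 2 or qHSC 4, at limma adjusted p values of 0.0567 to 0.0663, and without hypHSC 5 the log2 fold change was -1.07. Adgrl3 (chr5:81167984-81972980) varied widely within both groups, with 1.35, 28.99, 24.95, 178 and 109 in hypHSC libraries 1 to 5 and 12.7, 41.8, 1.57, 134 and 139 in qHSC libraries 1 to 5. Its log2 fold change was 0.07 (SE 1.35, limma adjusted p = 0.971), a difference that the data could not place on either side of 0. Adgrl4 was not tested. It reached 149 normalized counts in hypHSC 2 and 8.09 in hypHSC 1, was at 0 in the other hypHSC libraries, and was at most 4.5 in qHSCs. The 7 sinusoidal endothelial markers summed to 691 to 1113 in hypHSCs, with the highest sum in hypHSC 2, and to 935 to 2199.97 in qHSCs, and of the 6 tested 2 were called higher and 1 lower.

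Adgrd1 (GPR133, chr5:129173811-129281663), a receptor that raises cyclic AMP, had 131, 198, 175, 357 and 312 normalized counts in qHSC libraries 1 to 5. In hypHSC libraries 1 to 5 it had 28.3, 67.3, 90.6, 18.9 and 9.07. The groups did not overlap, and it fell by 2.76 on the log2 scale (SE 0.61, limma adjusted p = 0.0031, exact permutation p = 0.00794). Adgrv1, the longest member with 6309 codons and known from the hair cells of the inner ear, was at 1.51 to 26.95 in hypHSCs and 3.42 to 32.2 in qHSCs and was not called (log2 fold change -0.35, SE 0.80, limma adjusted p = 0.742).

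Subfamily F has 4 members side by side on chromosome 17 (Adgrf1, Adgrf2, Adgrf4 and Adgrf5) and Adgrf3 on chromosome 5. Adgrf5 (GPR116), which controls surfactant in the lung, was the only one tested. It had 82.2, 110.77, 48.2, 0 and 30.25 normalized counts in hypHSC libraries 1 to 5 and 7.24, 0, 0, 35.9 and 29.97 in qHSC libraries 1 to 5. The groups overlapped, and it was not called (log2 fold change 2.11, SE 1.48, limma adjusted p = 0.261). Without hypHSC 4 it was 3.30 with an adjusted p of 0.0468 by limma. Adgrf2 and Adgrf4 had no read in any hypHSC library, which allows at most 4.54 normalized counts in the shallowest of them. They reached 31.5 and 46.2 normalized counts in qHSCs, with 82 and 60 reads over the 5 libraries. Of the 60 Adgrf4 reads, 51 were in qHSC 1. Adgrf3 had 49 reads in hypHSCs, of which 45 were in hypHSC 4 (47.2 normalized counts) and 4 in hypHSC 1, and none in qHSCs. Adgrf1 (GPR110) was scattered, with 142 in hypHSC 3 and 64.2 in qHSC 4 as its highest values. In subfamily B, the brain angiogenesis inhibitors, Adgrb1 and Adgrb3 had no read and Adgrb2 had 12 reads in 2 qHSC libraries.

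Levels of different receptors were compared as FPKM (fragments scaled to exon length and to the reads of the library). The family summed to 25.1 to 113 FPKM in hypHSCs and to 29.6 to 68.97 FPKM in qHSCs. Subfamily E made up 93.8% to 98.7% of this sum in hypHSCs and 66.7% to 83.6% in qHSCs, without overlap. The leading receptor by mean share in hypHSCs was Adgre1 with 54.1% (range 27.2% to 63.0%), followed by Adgre5 with 39.5% and Adgre4 with 3.08%. In qHSCs Adgre5 led with 45.6% (range 34.3% to 56.3%), followed by Adgre4 with 22.6%, Adgra3 with 14.7% and Adgre1 with 7.71%. The qHSC ranges of Adgre4 (13.5% to 28.6%) and Adgra3 (9.92% to 20.8%) overlapped, and Adgra3 stood above Adgre4 in qHSC 3 and qHSC 5. Subfamily A held 18.3% of the sum in qHSCs and 0.523% in hypHSCs on average. In hypHSC 5, where Adgre1 was lowest, Adgre5 led with 65.2%. Among the 23185 genes with an exon length, Adgre1 ranked 994 by mean FPKM in hypHSCs (40.2 ± 22.0 FPKM, SD, n = 5) and 4637 in qHSCs (4.81 ± 6.19). Adgra3 ranked 11870 in hypHSCs (0.265 ± 0.340 FPKM) and 3837 in qHSCs (6.60 ± 0.396).

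**Figure D4:**
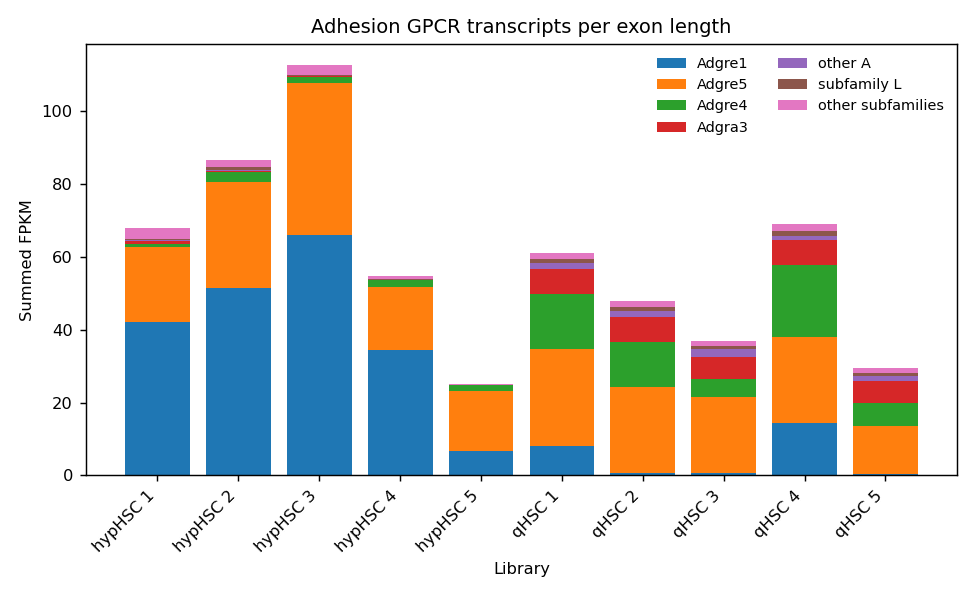
Stacked bars of the FPKM of the adhesion receptors summed in each of the 10 libraries, split into Adgre1, Adgre5, Adgre4, Adgra3, the other subfamily A genes, subfamily L and the remaining subfamilies. Adgre1 fills the lower part of the first 4 hypHSC bars, whereas Adgre4 and Adgra3 form wider bands in the qHSC bars.

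Known binding partners of the receptors were taken as a list of 34 genes drawn from general knowledge. Of these, 22 were tested, 4 were called higher, 11 lower and 7 neither, where 17.8% of all genes tested were higher and 21.7% lower, and their median log2 fold change was -1.46 against -0.20 for all genes. Among the partners of the latrophilins the directions were split. The neurexin Nrxn2 was at 186 to 351 normalized counts in qHSCs and at 1.35 to 7.48 in hypHSCs (log2 fold change -6.04, SE 0.50, limma adjusted p = 3.63e-06). Nrxn3 had a log2 fold change of -5.57, also with no overlap. Flrt2 and Flrt3, of the fibronectin leucine-rich family, rose by 6.75 and 6.94, from medians of 3.15 and 0 in qHSCs to 640.32 and 159.66 in hypHSCs, with no overlap. Tenm4, a teneurin, rose by 2.20, with overlap.

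Among the 9 listed partners of subfamily G, 6 were lower and 3 were not called. The log2 fold change was -4.08 for Lamb1 and -3.34 for Lamc1, which encode laminin chains, and -3.29 for Prnp, the prion protein that binds Adgrg6. It was -2.51 for Col4a1 and -1.66 for Col4a2 of basement membrane, and -2.50 for Cd81, a tetraspanin that binds Adgrg1. Among these lower partners the groups overlapped for Col4a2 only. Col3a1, the collagen that binds Adgrg1, was abundant in both groups, at 5157 to 22117 normalized counts in hypHSCs and 9599.85 to 26445 in qHSCs, and was not called (log2 fold change -0.60, SE 0.40, limma adjusted p = 0.245). Tgm2, a transglutaminase that binds Adgrg1, was not called either (-0.73, limma adjusted p = 0.113). Sftpd, surfactant protein D and a ligand of Adgrf5, rose by 6.65 on the log2 scale, and Fndc4, a ligand of the same receptor, fell by 3.31. Ptk7 and Plxdc2 (partners of Adgrd1), Cd55 (of Adgre5) and C1ql3 (of Adgrb3) were not called.

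**Figure D5:**
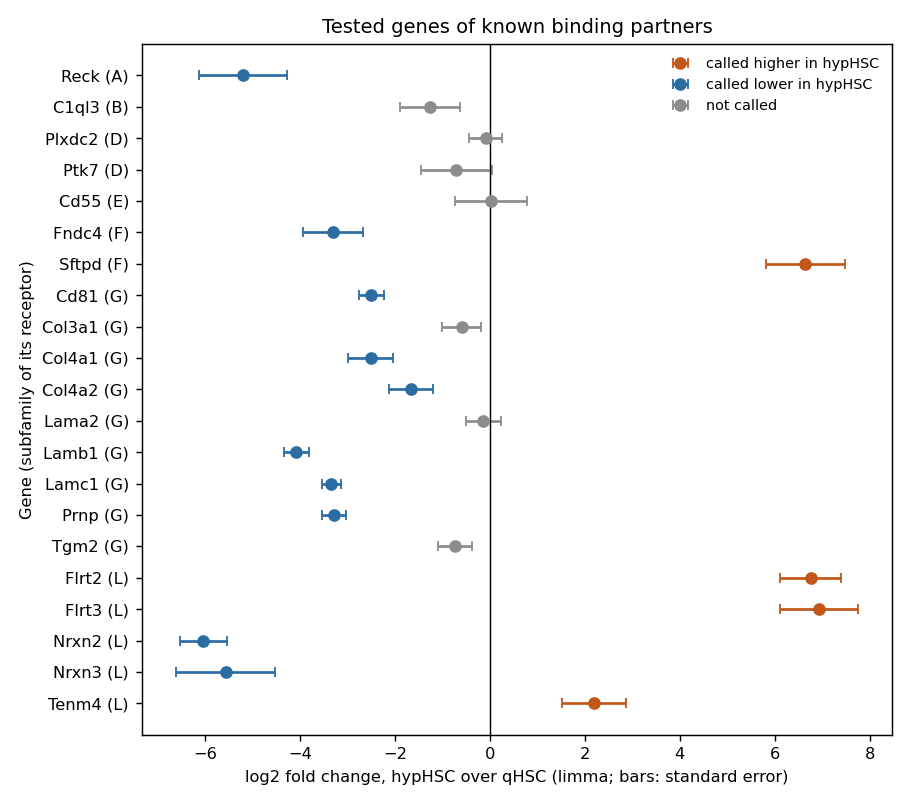
Log2 fold change of hypHSCs over qHSCs for the tested partner genes described here, with the limma standard error as bars and the subfamily letter of the receptor in brackets. Nrxn2 and Nrxn3 lie at the far left and Flrt2, Flrt3 and Sftpd at the far right, while 6 of the 9 partners of subfamily G lie between -4.08 and -1.66.

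Of the 23 G protein and effector genes listed, 22 were tested, 4 were called higher and 4 lower, near the 17.8% and 21.7% of all genes, and their median log2 fold change was -0.21, close to that of all genes. Gna15, the G alpha subunit of blood cells, rose by 5.53 on the log2 scale, from 0 to 40.7 normalized counts in qHSCs to 209 to 495 in hypHSCs. Elmo1, which links receptors of subfamily B to Rac, rose by 3.15, Arrb2, an arrestin, by 1.85 and Rac1 by 1.25. The groups overlapped for Arrb2 but not for Elmo1 and Rac1. Gna14 fell by 6.29, from a median of 1727 in qHSCs to 37.8 in hypHSCs, Gnao1 fell by 3.30, Gna11 by 2.29 and Gnai1 by 1.90. Of these, only Gnai1 had groups that overlapped. The subunits Gna12 and Gna13, to which many adhesion receptors couple, and Gnas, which raises cyclic AMP, were not called (-1.58, -0.13 and 0.55, limma adjusted p = 0.385, 0.457 and 0.0301, the last below the size needed for a call). Among the subfamily C genes, which the symbol rule does not match, Celsr3 was called higher (log2 fold change 3.45, SE 0.95, limma adjusted p = 0.0112, 7.56 to 161.5 against 0 to 12.8 normalized counts). Celsr1 was not called (0.89, limma adjusted p = 0.424), and Celsr2 was not tested.

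Within hypHSCs, the 2 libraries at 13 weeks of CDAHFD lay above the 3 libraries at 12 weeks for 5 of the 14 tested receptors (Adgra2, Adgra3, Adgrf5 and Adgrl1 among them) and below for 0. Over all 14630 tested genes the 13-week libraries lay above for 15.6% and below for 6.34%. For Adgra3 the values were 211 and 403 at 13 weeks against 3.02 to 45.7 at 12 weeks. With 2 libraries against 3 an exact permutation test cannot go below p = 0.2, so that no test was made, and the mice differed in age by the same step as in diet. Libraries hypHSC 1 and 2 also had the highest shares of reads on mitochondrial entries (12.8% and 7.27%, against 2.21% to 3.42% in the other 3). Their shares of reads on entries without a symbol, which were left out, were 29.1% and 20.1%, against 10.8% to 13.2% in the other 3. The part of these differences in the receptor values was not tested.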

How the data were processed

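The deposited table held 1 signal per gene and library, which the authors made by mapping reads to mm39 with STAR 2.7.5a, counting them per gene with Subread 1.5.0 featureCounts and dividing by DESeq2 size factors. The kit was not strand oriented. Each deposited column became whole reads when multiplied by 1 factor (100% of values, tolerance 0.005 normalized counts), and these reads gave depths and FPKM, with GENCODE exon lengths clipped to the deposited span and the reads of each library on genes with a symbol as the total. Of 62322 entries, the 37089 without a symbol were left out. Genes that reached 10 normalized counts in 5 or more libraries were tested on log2(normalized count + 1) with limma 3.58.1 (trend, R 4.3.3). The p-values were adjusted by Benjamini-Hochberg across 14630 genes, and a call needed a size of 1 and an adjusted p of 0.05. A fold change is a difference of mean log2 values on this scale, on which the added 1 and libraries near 0 both weigh. Among the called receptors named here, Adgra3 (-6.18 against -4.33) and Adgre1 (4.45 against 3.37) changed more in size than by DESeq2. The same held for Adgra2, Adgrd1, Adgrl1 and Adgrl2. Adgrg1 (5.70 against 6.86) and Adgre4 (-2.30 against -2.40) changed less. Single genes were also tested by exact two-sided permutation over 252 arrangements. The fit was tested on simulated data. DESeq2 1.42.0, edgeR 4.0.16 and other scalings, constants, filters and left-out libraries were alternatives. The naming rule took every matched gene, Celsr1 to Celsr3 and called members of the partner and effector lists, and a few of these are counted but not reported here by name. A few partner and effector genes without a call were named after their values were seen. The members and lists were chosen with earlier results of these data known. Intervals and floors cover counting error only.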

Additional observations from a re-analysis of the deposited data

Results flagged for a closer look

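Among the 14 tested adhesion receptor genes, 4 of 28 groups of 5 libraries had a library far from the other 4 of its group by Dixon's criterion, where chance flags about 1 in 20 groups. Adgre1 in hypHSC 5 was at 1113 normalized counts, against 5265 to 8100 in the other hypHSC libraries. Adgrl2 in hypHSC 5 was at 16.64, against 102 to 146. Adgrf5 in hypHSC 4 was at 0.0, against 30.25 to 110.77. Adgra3 in qHSC 3 was at 2345, against 2702 to 2821, a small step within a narrow group. Library hypHSC 5 also had the fewest genes with a read (14028).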

How the results depend on the processing

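Of 328 recomputed gene results, 305 kept their direction and side of the threshold, 13 lost their call, 1 gained one and 9 changed sign. Adgra2, Adgra3, Adgrd1, Adgre1, Adgre4, Adgrg1 and Adgrl1 kept their calls under every alternative that tested them. Adgrl2 lost its call 4 times and a lower receptor not named here 9 times, and DESeq2 and edgeR each called 6 receptors lower in place of 7. Adgrl2 lost its call in 3 fits without 1 library, and was at -1.45 without both qHSC 1 and qHSC 4, an alternative chosen after seeing the data. The sign changed only in genes without a call. Scaled by Hprt, Pgk1 and Actb, Adgre5 was at -0.43, Adgrg6 at -0.40 and Adgrl3 at -0.72. With equal library totals Adgrl3 was at -0.25. Leaving out 1 library gave -0.83 to 1.01 for Adgrl3 and -0.78 to 0.20 for Adgrv1. The median of all genes was -0.54 with equal totals, -1.12 with the 3 genes and -0.09 with equal upper quartiles, against -0.20. The receptors called higher numbered 1 in place of 2 when a mean of 100 normalized counts was required, which leaves fewer genes tested. With no filter 3 receptors were called higher and 8 lower, which includes genes described above as not tested. Over all 19373 genes of that fit, 2865 were called higher and 3392 lower. The G protein and effector genes called numbered 13 in place of 8 with Hprt, Pgk1 and Actb. Leaving out 1 library gave 2 to 3 receptors higher and 5 to 7 lower. Same-numbered libraries of the groups correlated at 0.00815 to 0.129, so that the numbers were not taken to pair them, and the fit with the replicate block called 2 higher and 7 lower. Over all genes limma called 5779, and on the recovered reads DESeq2 called 5822 and edgeR 5336. At this depth, values near the floor of 3 reads in the genes not tested cannot show a difference.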
